A study of Mus musculus with 36 samples.

Results

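The genes described here are 10 cartilage genes that do not encode collagens, namely Acan, Hapln1, Comp, Matn1, Matn3, Chad, Sox9, Ihh, Cytl1 and Cnmd. They were chosen by symbol among the 56246 genes of the table, and each symbol has 1 row. Bulk RNA was sequenced from tibiae of 36 mice aged 6 months, with 12 mice in each of 3 groups and 6 males and 6 females in each group. The wild-type group was not treated. The mice of the saline group had the genotype LMNAG608G/G608G and were given saline behind the eye (retro-orbital) at P14, 14 days after birth. The mice of the ABE group had the same genotype and were given an adenine base editor at P14 by the same route. Both LMNA G/G groups therefore carry the human LMNA transgene with the G608G mutation of Hutchinson-Gilford progeria, inserted with the neighbouring gene RAB25 in a bacterial artificial chromosome, and the editor was directed at that mutation and delivered by a pair of AAV9 vectors. Epiphyses and marrow had been removed, so the joint surface was cut away. What cartilage remained with the shaft was not measured apart from gene levels.

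Cartilage is a gel of the large proteoglycan aggrecan held in a mesh of thin collagen fibrils. Aggrecan monomers hang on hyaluronan through a link protein, while matrilins, COMP and chondroadherin connect the fibrils with each other and with the chondrocytes. SOX9 switches on most of these matrix genes, and chondrocytes of the growth plate that stop dividing secrete Indian hedgehog, which sets the pace of growth and of bone formation beneath the plate.

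Values are given as scaled TPM, that is TPM, a level per length of gene, divided by 1 factor per library so that the median gene is alike in all libraries. Libraries held 48064068 to 116206662 reads on genes. Their factors ran from 0.22 to 1.57, the lowest being that of ABE replicate 1. Genes with a mean of at least 0.1 scaled TPM, 22546 in all, were compared between groups with limma with sex as a covariate, and a gene was called at an adjusted p under 0.05. Of the 10 cartilage genes 9 were tested, and Matn1, with a mean of 0.022 scaled TPM over all libraries, fell under the limit. Without the rescaling, the median log2 fold change of all genes was −0.16 in saline against wild-type, −0.49 in ABE against wild-type and −0.31 in ABE against saline.

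In saline-treated LMNA G/G tibiae 8 of the 9 genes tested were lower than in wild-type and none was higher, where 24.7% of all genes tested were called lower, 25.3% higher and 50.0% in either direction. Of these 9, Hapln1, Matn3 and Cnmd passed the limit on low values only through wild-type, where they were high, so that their part of the count is set by the limit. Of the other 6, 5 were called lower, all but Ihh. The median log2 fold change of the 9 was −2.23, against 0.01 for all genes tested. In 5 of them, Acan, Hapln1, Chad, Cytl1 and Cnmd, every saline library lay under every wild-type library, which held for 3.85% of all genes. Here too the parts of Hapln1 and Cnmd are set by the limit. In ABE-treated tibiae 7 genes were lower than in wild-type and 1, Ihh, was higher, where 34.0% and 32.9% of all genes were called lower and higher, 66.8% in all. Of the 7, Hapln1, Matn3 and Cnmd are again set by the limit, and the others are Acan, Comp, Chad and Cytl1. Cnmd alone lay wholly under the wild-type libraries and no gene of the 9 wholly above them, against 4.74% and 3.75% of all genes. As Cnmd passed the limit only through wild-type, its place here is set by the limit as well. ABE-treated tibiae held more of 5 genes than saline-treated tibiae, Acan, Comp, Chad, Sox9 and Ihh, and less of none, where 21.6% of all genes were called in each direction and 43.3% in all. ABE and saline ranges overlapped for each of the 9, as for all but 0.00887% (wholly lower) and 0.0222% (wholly higher) of all genes. The medians of the 9 genes were −1.24 and 0.61 in these comparisons, against −0.02 and −0.01 for all genes. The medians against wild-type, −2.23 and −1.24, include Hapln1, Matn3 and Cnmd, which were tested only because of their wild-type level. Each pair of these comparisons shares the libraries of 1 group, so they are not independent of each other. In bulk tissue, fewer chondrocytes and less RNA per chondrocyte cannot be told apart.

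**Figure D1:**
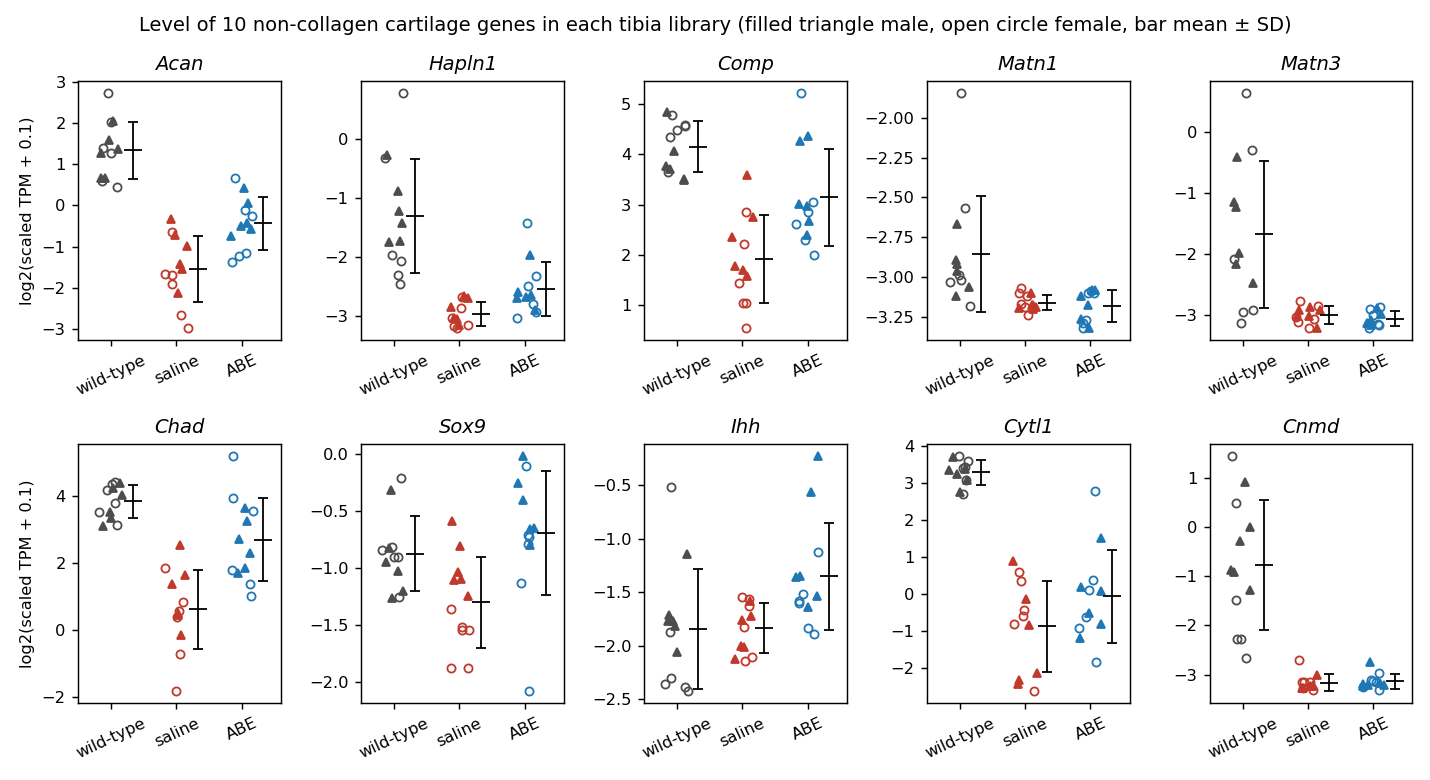
Level of each of the 10 genes in each of 36 tibia libraries, as log2(scaled TPM + 0.1) on an axis of its own, by group, with filled triangles for males, open circles for females and a bar for the mean ± SD of 12 libraries. Cnmd, Matn3 and Matn1 sit near the floor in both LMNA G/G groups, while the ABE medians of Chad, Comp and Acan lie between those of the other groups, with ABE libraries in the saline range for each gene and in or above the wild-type range for some.

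Acan encodes aggrecan, and at 7469 bp its transcripts gave many reads even at low TPM (chromosome 7, 79053483 to 79115099, plus strand, GRCm38). In wild-type tibiae its level ran from 1.27 to 6.57 scaled TPM with a median of 2.40, from 2833 to 11203 reads. Saline libraries held 0.026 to 0.70 with a median of 0.23, and ABE libraries 0.28 to 1.49 with a median of 0.62. The saline and wild-type ranges did not overlap, and 11 of 12 ABE libraries lay under the lowest wild-type one, but all 12 lay above the saline median. Acan was thus 2.74 ± 1.52 (SD, n = 12), 0.29 ± 0.21 and 0.71 ± 0.37 scaled TPM in wild-type, saline and ABE, a log2 fold change of −2.90 ± 0.28 (SE) in saline against wild-type (limma, adjusted p = 5.95e-10), of −1.78 ± 0.28 in ABE against wild-type (adjusted p = 1.82e-06) and of 1.12 ± 0.28 in ABE against saline (adjusted p = 0.00293). The last was 0.89 and not called in males alone (adjusted p = 0.0524).

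Hapln1 encodes the link protein that fastens aggrecan to hyaluronan (chromosome 13, 89539796 to 89611652, plus strand). Its wild-type libraries spread widely, from 0.080 to 1.62 scaled TPM with a median of 0.24. Saline libraries held 0.0075 to 0.058 (15 to 121 reads) and ABE libraries 0.021 to 0.27 (31 to 238 reads). All saline libraries were under the wild-type range, and 3 ABE libraries reached into it. The log2 fold changes were −1.66 ± 0.26 in saline against wild-type (adjusted p = 2.58e-06) and −1.24 ± 0.26 in ABE against wild-type (adjusted p = 7.6e-05), the latter not called in females alone (−1.11, adjusted p = 0.0586). Between ABE and saline the difference of 0.42, with a 95% interval of −0.10 to 0.94, was not called (adjusted p = 0.188), although 11 of 12 ABE libraries were above the saline median. This gene lies close to the 0.1 that is added before the logarithm, and limma-voom on the reads themselves gave a fold change of 1.30 on the log2 scale for ABE against saline (adjusted p = 0.0486).

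Comp encodes cartilage oligomeric matrix protein, a thrombospondin of cartilage and tendon (chromosome 8, 70373558 to 70382066, plus strand). It was the most abundant of the 10 genes in each group. Wild-type libraries ran from 11.2 to 28.6 scaled TPM (median 18.4), saline libraries from 1.36 to 11.9 (median 3.26) and ABE libraries from 3.87 to 37.1 (median 7.44). A single saline library, replicate 11, reached the wild-type range, whereas of the ABE libraries 2 lay in it and 1, replicate 5, above it. Comp was lower in saline than in wild-type by a log2 fold change of −2.23 ± 0.33 (adjusted p = 9.83e-07) and lower in ABE than in wild-type by −1.01 ± 0.33 (adjusted p = 0.00697). It was higher in ABE than in saline by 1.23 ± 0.33 (adjusted p = 0.00388), and by 1.02 without ABE replicate 5 (adjusted p = 0.00778). In males alone it was not called in ABE against wild-type (−0.62, adjusted p = 0.191) or against saline (0.98, adjusted p = 0.0945). On TPM as deposited, without rescaling, the ABE and saline difference was 0.85 and was not called (adjusted p = 0.0675).

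Chad encodes chondroadherin, a leucine-rich repeat protein that binds collagen and the integrins of chondrocytes (chromosome 11, 94565047 to 94569127, plus strand). Wild-type libraries held 8.46 to 21.0 scaled TPM with a median of 15.0, saline libraries 0.18 to 5.64 with a median of 1.36, and ABE libraries 1.91 to 36.6 with a median of 5.68. Saline and wild-type did not overlap. Of the ABE libraries 7 lay under the wild-type range, 4 in it and 1 above it, and 6 were above the highest saline library. Chad showed the largest difference between ABE and saline among the 9 genes, 2.07 ± 0.42 on the log2 scale (adjusted p = 0.000652), with saline at −3.21 ± 0.42 (adjusted p = 1.26e-07) and ABE at −1.14 ± 0.42 (adjusted p = 0.0161) of wild-type. Without ABE replicate 5, which held the highest value, the difference between ABE and saline was 1.83 (adjusted p = 0.00122), and without ABE replicate 1 it was 2.15 (adjusted p = 0.000793). In females alone ABE and wild-type differed by −1.09, which was not called (adjusted p = 0.209).

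Matn3 encodes matrilin-3, an adaptor of growth plate cartilage (chromosome 12, 8947929 to 8972028, plus strand). Its wild-type libraries differed among themselves more than those of Chad or Comp, from 0.014 to 1.45 scaled TPM (11 to 953 reads, median 0.14). Saline libraries held 0.0080 to 0.048 and ABE libraries 0.0084 to 0.038, with medians of 0.025 and 0.017, from 6 to 37 reads. The lowest wild-type library, replicate 6, lay within the LMNA G/G values, so the ranges overlapped, but all 24 LMNA G/G libraries were under the wild-type median. The log2 fold change was −1.31 ± 0.28 in saline (adjusted p = 0.000282) and −1.37 ± 0.28 in ABE (adjusted p = 8.19e-05) against wild-type, and neither was called in females alone (−1.21, adjusted p = 0.11, and −1.25, adjusted p = 0.0531). ABE and saline differed by −0.06, with a 95% interval of −0.64 to 0.52 (adjusted p = 0.894).

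Matn1, which encodes matrilin-1 and marks non-articular cartilage (chromosome 4, 130944385 to 130955475, plus strand), was the scarcest. Wild-type libraries held 0.010 to 0.18 scaled TPM, or 5 to 75 reads, with a median of 14 reads. Saline libraries held 3 to 12 reads and ABE libraries 0 to 10 reads, and all of them were under the wild-type median in scaled TPM. Matn1 entered a test only with no limit on low values, and its log2 fold changes are given for that setting. There limma on scaled TPM gave −0.31 for saline (adjusted p = 0.00766) and −0.33 for ABE (adjusted p = 0.0024) against wild-type. For ABE against saline it gave −0.024 (adjusted p = 0.893). A second fit, limma-voom on reads, was chosen after the data were seen. This second fit gave −1.38 for saline (adjusted p = 0.00488) and −1.94 for ABE (adjusted p = 0.000282) against wild-type. For ABE against saline it gave −0.55 (adjusted p = 0.393).

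Sox9, the master transcription factor of chondrocytes, had smaller fold changes against wild-type than the matrix genes (chromosome 11, 112782224 to 112787760, plus strand). It had 0.32 to 0.76 scaled TPM in wild-type (median 0.44), 0.17 to 0.57 in saline (median 0.31) and 0.14 to 0.89 in ABE (median 0.52), and all 3 ranges overlapped. The fall in saline against wild-type was small, −0.42 ± 0.16 (adjusted p = 0.0278), and it passed the threshold no longer without wild-type replicate 8 (adjusted p = 0.0508), wild-type replicate 9 (adjusted p = 0.0605) or saline replicate 1 (adjusted p = 0.0508). ABE was above saline by 0.61 ± 0.16 (adjusted p = 0.00387), with 11 of 12 ABE libraries above the saline median. ABE and wild-type differed by 0.18, with a 95% interval of −0.14 to 0.51 (adjusted p = 0.322). On TPM as deposited the ABE and saline difference was 0.33 and not called (adjusted p = 0.169).

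Ihh encodes Indian hedgehog, the signal of prehypertrophic chondrocytes (chromosome 1, 74945315 to 74951672, minus strand). Wild-type libraries ran from 0.086 to 0.60 scaled TPM (median 0.18), saline libraries from 0.13 to 0.24 (median 0.19) and ABE libraries from 0.17 to 0.76 (median 0.25), and again all ranges overlapped. Saline and wild-type differed by 0.01, with a 95% interval of −0.35 to 0.37 (adjusted p = 0.978). ABE was above wild-type by 0.49 ± 0.18 (adjusted p = 0.0156) and above saline by 0.48 ± 0.18 (adjusted p = 0.0287). Both of these calls depended on the scaling of the libraries, since on TPM as deposited the differences were 0.11 (adjusted p = 0.639) and 0.25 (adjusted p = 0.314), and the second was lost without saline replicate 10 (adjusted p = 0.0518), ABE replicate 9 (adjusted p = 0.0612) or ABE replicate 12 (adjusted p = 0.0595). Neither was called in females alone (0.38, adjusted p = 0.255, and 0.21, adjusted p = 0.59), whereas both were in males alone (0.60, adjusted p = 0.0273, and 0.76, adjusted p = 0.0279).

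Cytl1 encodes a small secreted protein of chondrocytes (chromosome 5, 37735519 to 37739820, plus strand). It was abundant and even in wild-type, from 6.48 to 13.3 scaled TPM with a median of 10.3. Saline libraries held 0.064 to 1.75 (median 0.52) and ABE libraries 0.18 to 6.86 (median 0.78). No saline library and 1 ABE library, replicate 5, reached the wild-type range. Its log2 fold changes against wild-type were −4.16 ± 0.41 in saline (adjusted p = 8.47e-10) and −3.35 ± 0.41 in ABE (adjusted p = 2.94e-08), the most negative of the 9 with the 0.1 added, though limma-voom on the reads gave −4.57 and −3.63, less than for Cnmd. The difference of ABE from saline, 0.81 with a 95% interval of −0.03 to 1.65, was not called (adjusted p = 0.113), but it was called without ABE replicate 2 (0.99, adjusted p = 0.043) or saline replicate 11 (0.99, adjusted p = 0.044), and it was 0.55 without ABE replicate 5 (adjusted p = 0.244).

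Cnmd encodes chondromodulin, a membrane protein of cartilage that restrains the ingrowth of vessels (chromosome 14, 79637690 to 79662170, minus strand). Wild-type libraries held 0.058 to 2.66 scaled TPM with a median of 0.44, from 26 to 1015 reads. Saline libraries held 0 to 0.054 and ABE libraries 0 to 0.050, with medians of 3.5 and 5 reads. Both LMNA G/G groups lay wholly under the wild-type range, the only one of the 9 genes for which this held in ABE, where 4.74% of all genes were under the wild-type range. Cnmd was tested only because of its wild-type level, so its place beside this share is set by the limit on low values. The mean was 62.3 times higher in wild-type than in saline and 53.4 times higher than in ABE, although the log2 fold changes were only −2.40 ± 0.31 (adjusted p = 1.31e-07) and −2.38 ± 0.31 (adjusted p = 8.14e-08), since adding 0.1 understates the change of so low a gene. limma-voom on the reads gave −5.70 and −5.26. ABE and saline differed by 0.03, with a 95% interval of −0.61 to 0.66 (adjusted p = 0.96).

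**Figure D2:**
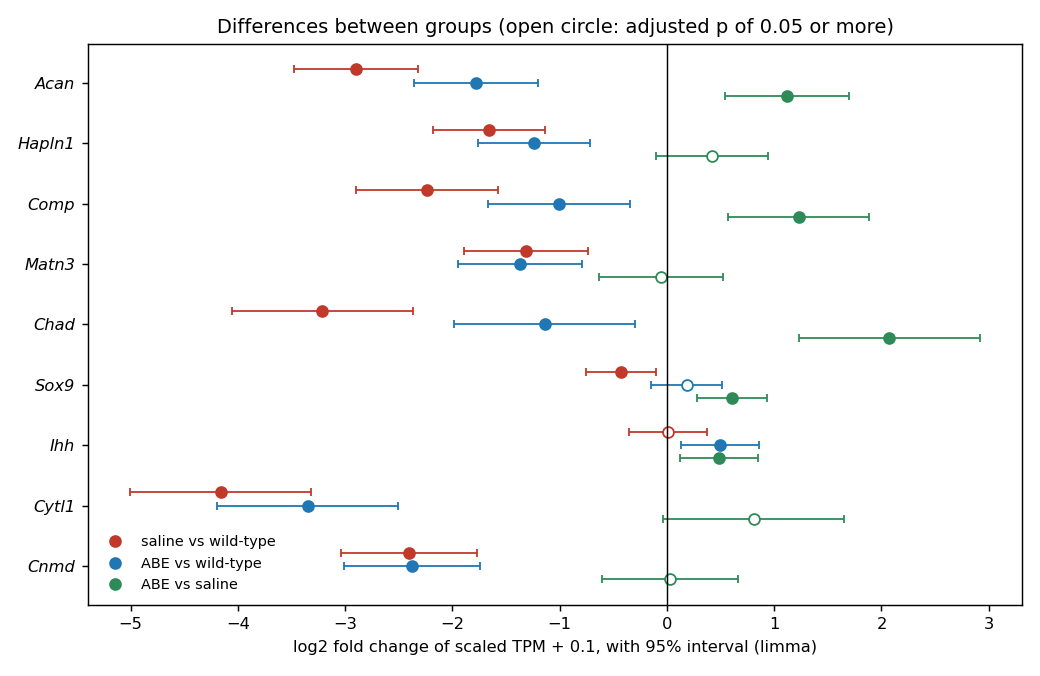
Log2 fold change of the 9 genes tested, with 95% intervals from limma, for saline against wild-type (red), ABE against wild-type (blue) and ABE against saline (green), with open circles where the adjusted p was 0.05 or more. For Matn3 and Cnmd the red and blue points lie side by side, at −1.31 and −1.37 and at −2.40 and −2.38, while for Chad the blue and red points lie apart, at −1.14 and −3.21.

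Promoters are shown for 4 genes that stand for the patterns above, Chad, with the largest difference between ABE and saline, Cytl1, abundant in wild-type and low in both LMNA G/G groups, and Matn3 and Cnmd, which were near the floor in both LMNA G/G groups. Each is the 250 bases before the RefSeq start, 5′ to 3′ on the strand of the gene, in build GRCm38.p6, and a match to a searched motif is in capitals. The windows are chr11:94564797-94565046 on the plus strand for Chad, chr5:37735269-37735518 on the plus strand for Cytl1, chr12:8947679-8947928 on the plus strand for Matn3 and chr14:79662184-79662433 on the minus strand for Cnmd.
Chad: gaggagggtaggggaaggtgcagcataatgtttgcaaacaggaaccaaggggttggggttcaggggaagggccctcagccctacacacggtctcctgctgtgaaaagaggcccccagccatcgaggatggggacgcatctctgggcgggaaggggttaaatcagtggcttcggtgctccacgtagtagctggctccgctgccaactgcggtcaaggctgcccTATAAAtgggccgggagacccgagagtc
Cytl1: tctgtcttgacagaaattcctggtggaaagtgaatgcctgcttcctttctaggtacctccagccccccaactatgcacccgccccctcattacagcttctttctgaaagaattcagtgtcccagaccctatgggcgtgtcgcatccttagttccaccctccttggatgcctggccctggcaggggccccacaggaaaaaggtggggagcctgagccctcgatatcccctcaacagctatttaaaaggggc
Matn3: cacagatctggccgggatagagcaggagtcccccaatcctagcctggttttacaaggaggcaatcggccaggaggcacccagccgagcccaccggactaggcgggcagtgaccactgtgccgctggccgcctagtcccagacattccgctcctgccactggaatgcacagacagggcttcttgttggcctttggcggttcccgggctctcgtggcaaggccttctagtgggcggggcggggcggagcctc
Cnmd: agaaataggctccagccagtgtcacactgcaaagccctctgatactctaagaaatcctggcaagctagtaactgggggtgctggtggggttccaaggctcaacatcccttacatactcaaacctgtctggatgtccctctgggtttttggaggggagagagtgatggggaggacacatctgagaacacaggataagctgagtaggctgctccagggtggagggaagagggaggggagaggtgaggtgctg
The table held promoters of 8 of the 10 genes, all but Comp and Sox9. Both strands were searched for ACAAT, the core of SOX sites, CCACCCA, the core of GLI sites, TGTGGT, a RUNX site, and TATAAA, the TATA box, none of which contains another. They occurred in 27.7%, 8.11%, 14% and 12.4% of all 32851 promoters of this length. Among the 8, ACAAT was found in Hapln1 and Ihh, CCACCCA and TGTGGT in Hapln1 and Matn1, and TATAAA in Chad alone, while Acan, Cytl1, Matn3 and Cnmd held none of the 4. A match is a description of the letters and not of binding.

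Within each group, Comp was followed by Chad and then by Cytl1 in median level. In wild-type the order went on with Acan, Cnmd, Sox9, Hapln1, Ihh, Matn3 and Matn1, whereas in saline Cnmd came last and Sox9 stood above Acan. Neighbours in these orders mostly overlapped. Comp was above Chad in 10 of 12 wild-type, all 12 saline and 10 of 12 ABE libraries, and the ranges of both genes overlapped in each group. Cytl1 was above Acan in all 12 wild-type libraries but above Sox9, its next neighbour, in only 7 of 12 saline libraries. In saline the ranges of Ihh and Matn3, neighbours in the order, did not overlap.

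Pairs of the genes were correlated within each group. In wild-type, Hapln1, Matn3 and Cnmd rose and fell together from mouse to mouse. Over the 12 libraries, Pearson's r of log2(scaled TPM + 0.1) was 0.980 for Hapln1 and Matn3, with a Spearman's rho of 0.965 and a permutation p of 1e-05 for each, the smallest that 100000 permutations can give (adjusted p = 0.000216 and 0.00027 over 108 relations). It was 0.977 for Matn3 and Cnmd (rho 0.958) and 0.968 for Hapln1 and Cnmd (rho 0.993), with the same p-values. Without the 2 libraries farthest from the median, these were 0.963, 0.977 and 0.967. The wild-type replicates 8, 9 and 12 were the highest in all 3 genes, and replicate 6 the lowest. Ihh had an r of 0.906 with Hapln1 (rho 0.804, permutation p = 5e-05 and 0.00252, adjusted p = 0.0006 and 0.0136, r of 0.732 without 2 libraries), but with Matn3, at an r of 0.856, it did not pass by rho (0.678, permutation p = 0.00025 and 0.0192, adjusted p = 0.0018 and 0.0611, r of 0.849 without 2 libraries). In saline, where Hapln1 had 15 to 121 reads, Ihh and Hapln1 went opposite ways, with an r of −0.71 (rho −0.762, permutation p = 0.0131 and 0.00527, adjusted p = 0.0362 and 0.0219, r of −0.871 without 2 libraries). In ABE their r was 0.031 (rho −0.049, permutation p = 0.926 and 0.886, adjusted p = 0.953 and 0.939).

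Comp and Cytl1 showed no relation with Cnmd like those of Hapln1 and Matn3 at this number of libraries. In wild-type, r was −0.115 for Comp and Cnmd (rho −0.098, permutation p = 0.718 and 0.767, adjusted p = 0.804 and 0.891) and 0.127 for Cytl1 and Cnmd (rho 0.140, permutation p = 0.691 and 0.668, adjusted p = 0.8 and 0.793), and without 2 libraries they were −0.233 and 0.010. Acan and Chad went together in wild-type, with r of 0.812 (rho 0.804, permutation p = 0.00159 and 0.00268, adjusted p = 0.0066 and 0.0138, r of 0.775 without 2 libraries). Acan also went there with Hapln1 (r = 0.886, rho 0.811, permutation p = 0.00017 and 0.00244, adjusted p = 0.00141 and 0.0136, r of 0.81 without 2 libraries). With Matn3 and Cnmd its r was 0.835 and 0.793, and both pairs passed by both measures (permutation tests, adjusted p = 0.00334 and 0.025 for Matn3, 0.00864 and 0.0172 for Cnmd). In ABE, Hapln1 was correlated with Cytl1 (r = 0.976, rho 0.951, permutation p = 1e-05 and 2e-05, adjusted p = 0.000216 and 0.000432, r of 0.912 without 2 libraries) and with Chad (r = 0.910, rho 0.965, permutation p = 1e-05 and 1e-05, adjusted p = 0.000216 and 0.00027, r of 0.923 without 2 libraries). Hapln1 and Matn3 had an r of 0.347 there (rho 0.434, permutation p = 0.282 and 0.164, adjusted p = 0.436 and 0.281, r of 0.337 without 2 libraries), and Matn3 had at most 36 reads in these libraries, so a relation could hardly be seen. Whether r differed between groups was not tested. Of the 36 pairs in each group, 11 in wild-type, 9 in saline and 12 in ABE passed an adjusted p of 0.05 by both measures.

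**Figure D3:**
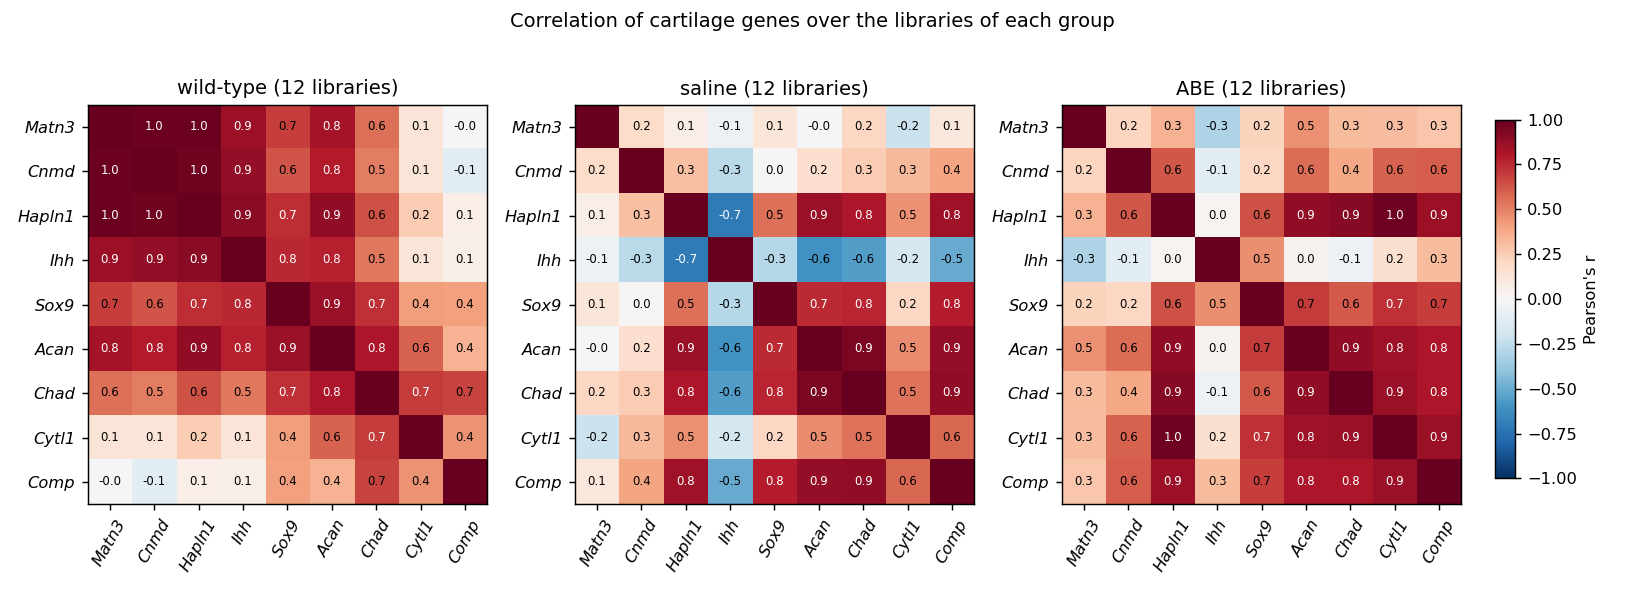
Pearson's r of log2(scaled TPM + 0.1) for each pair of the 9 genes tested over the 12 libraries of wild-type, saline and ABE, rounded to 1 decimal. Matn3, Cnmd and Hapln1 form a block of 0.968 to 0.980 in wild-type, and Matn3 and Cnmd have no such block in the LMNA G/G groups, where they had 0 to 37 reads.

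The genes whose level was most like that of each member were found once the means of group and sex had been taken away over 36 libraries. For Matn3, Cnmd and Hapln1 they were chains of collagen IX, another gene of cartilage matrix and members themselves. Matn3 was nearest to Col9a3 (r = 0.964), Cnmd (r = 0.961) and Col9a1 (r = 0.957). Cnmd was nearest to Col9a3 (r = 0.966), Matn3 (r = 0.961) and Col9a2 (r = 0.947). Hapln1 was nearest to Ucma (r = 0.941), Col9a2 (r = 0.920) and Cnmd (r = 0.887). Within groups, Matn3 and Cnmd had an r of 0.977 in wild-type, 0.185 in saline and 0.214 in ABE. The r over 36 libraries therefore does not show a likeness in each group. For Comp and Chad the nearest was Ecrg4 (r = 0.918 and 0.879), and for Comp the next were Clec3a (r = 0.887) and Scube1 (r = 0.864). For Acan the nearest was Chad (r = 0.854), and for Cytl1 it was Stk32b (r = 0.772). Ihh was nearest to Col10a1, the collagen of hypertrophic chondrocytes (r = 0.687), and Sox9 to the noncoding gene Mir99ahg (r = 0.786). These likenesses are descriptions over libraries that share their scaling.

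**Figure D4:**
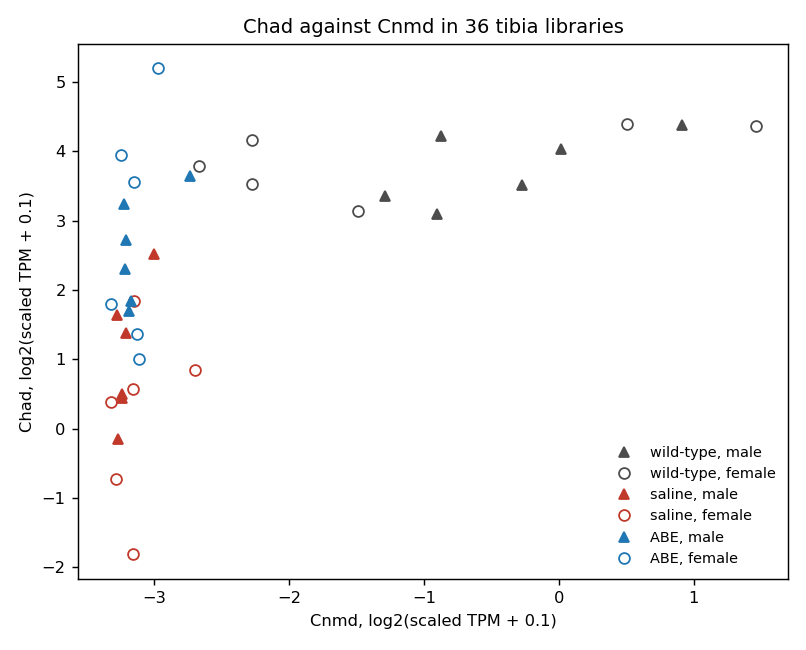
Chad against Cnmd in 36 tibia libraries, both as log2(scaled TPM + 0.1), with filled triangles for males and open circles for females in grey (wild-type), red (saline) and blue (ABE). All LMNA G/G libraries stand at the left, at 0 to 0.054 scaled TPM of Cnmd, where Chad spans 0.18 to 36.6, while wild-type libraries spread along Cnmd at 8.46 to 21.0 of Chad.

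Neither difference between groups was called to depend on sex for any of the 9 genes by limma, where 1.18% of all genes were called for saline against wild-type and 0.0621% for ABE against saline. At an unadjusted p under 0.05 there was 1 gene of the 9 in the first, Sox9, and 0 in the second, against 4956 and 3261 of all 22546 genes. limma-voom also called 0 in both, but limma with array weights called the first for Comp (1.56, adjusted p = 0.0306) and Sox9 (0.71, adjusted p = 0.0337). How many of all genes array weights called is not given here. Sox9 in saline against wild-type was −0.80 in females alone (adjusted p = 0.0307) and −0.05 in males alone (adjusted p = 0.835), a difference between sexes of 0.75 ± 0.30 (unadjusted limma p = 0.0180, adjusted p = 0.148). Comp fell by 2.87 on the log2 scale in females (adjusted p = 0.000738) and by 1.60 in males (adjusted p = 0.00353), with a difference of 1.27 whose 95% interval was −0.02 to 2.55 (adjusted p = 0.233). Chad in ABE against saline was 2.63 in females (adjusted p = 0.0254) and 1.52 in males (adjusted p = 0.0246), with an interval of the difference of −2.80 to 0.59 (adjusted p = 0.524).

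Most cartilage collagens were also lower in LMNA G/G tibiae. Of 7 chains, 5 were lower than wild-type in saline and 5 in ABE, and none was called between ABE and saline, where 4 of the 9 genes above were not called either. Of all genes tested, 24.7% were called lower and 25.3% higher in saline than in wild-type. These shares were 34.0% and 32.9% in ABE against wild-type, and 21.6% each in ABE against saline. The chains not called against wild-type were Col11a1 and Col11a2, the latter the most abundant of the 7 in wild-type, with a mean of 31.6 scaled TPM. In saline, Col11a2 was −0.52 (adjusted p = 0.0685) and Col11a1 −0.29 (adjusted p = 0.331). In ABE they were −0.32 (adjusted p = 0.245) and −0.11 (adjusted p = 0.715). Whether the lists differed was not tested. Col2a1, the main fibril collagen of cartilage, was 24.5 ± 16.3, 11.5 ± 6.56 and 13.7 ± 5.93 scaled TPM in wild-type, saline and ABE, and Col10a1 was 3.28 ± 3.24, 0.034 ± 0.019 and 0.057 ± 0.038. The log2 fold change of Col10a1 was −4.32 ± 0.24 in saline (adjusted p = 3.01e-15) and −4.10 ± 0.24 in ABE (adjusted p = 6.02e-15), and that of Col2a1 −1.03 ± 0.29 (adjusted p = 0.00403) and −0.71 ± 0.29 (adjusted p = 0.0329). Col10a1 passed the limit on low values only through wild-type, so its part of the counts above is set by the limit. Adding 0.1 also understates its fall. Col9a1 had a mean of 0.87 scaled TPM in wild-type, 0.080 in saline and 0.104 in ABE, so that it too passed the limit through wild-type. Its part of the counts above is therefore also set by the limit. The call of Col2a1 in ABE was lost with no sex covariate (adjusted p = 0.0528), with array weights (adjusted p = 0.0571), in males (−0.28, adjusted p = 0.474), in females (adjusted p = 0.0549) and without any 1 of wild-type replicates 6, 8, 9 and 12 or ABE replicates 4, 6 and 10 (adjusted p = 0.0548 to 0.0694), and that in saline was lost in males (−0.61, adjusted p = 0.125). Of 13 other cartilage matrix genes tested, 9 were lower and 1 was higher in saline than in wild-type, 5 were lower and 3 higher in ABE than in wild-type, and 7 were higher and 2 lower in ABE than in saline. On TPM as deposited the last counts were 2 and 2, and those against wild-type were 9 lower and 1 higher in saline and 7 lower and 1 higher in ABE. Ucma of this list had a mean of 0.43 scaled TPM in wild-type but 0.0095 in saline, under the limit of 0.1. Its part of the count in saline against wild-type is set by the limit. Which others of the list passed only through wild-type is not given here. Cilp, a protein of the intermediate layer of cartilage, was −2.59 ± 0.36 in saline against wild-type (adjusted p = 3.9e-07) and 1.24 ± 0.36 in ABE against saline (adjusted p = 0.00639). The latter was not called on TPM as deposited (0.88, adjusted p = 0.0647) or in females alone (1.25, adjusted p = 0.135). Clec3a, a lectin of cartilage, was −4.40 ± 0.67 in saline against wild-type (adjusted p = 2e-06), and its ABE libraries ran from 0.21 to 41.7 scaled TPM.

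Genes upstream and downstream of aggrecan and of hedgehog were looked at by list. Of all genes tested, 24.7% were called lower and 25.3% higher in saline than in wild-type, and 21.6% each way in ABE against saline. On TPM as deposited 4940 of 22741 genes were lower and 1458 higher in the first comparison, and 8102 and 753 in the second. The counts of chondroitin sulfate synthesis in saline, and of transcription factors called lower there, were near the shares of all genes. Of 11 chondrocyte transcription factors other than Sox9, 3 were lower and 1 higher in saline than in wild-type, and 7 were higher in ABE than in saline, but on TPM as deposited the last was 2 higher and 1 lower. Of 18 genes of hedgehog and PTHrP signaling, 7 were lower and 4 higher in saline than in wild-type, and 11 were higher and none lower in ABE than in saline, but on TPM as deposited these were 6 lower and none higher, and 3 higher. Pth1r, the receptor of PTHrP, was 0.52 ± 0.15 higher on the log2 scale in saline than in wild-type (adjusted p = 0.00358), but was not called on TPM as deposited (0.33, adjusted p = 0.315), on TPM rescaled without short genes (0.32, adjusted p = 0.11) or in females (0.04, adjusted p = 0.922). Against wild-type, Pth1r and Gas1 were called higher in ABE by 0.49 and 0.47, but their values were −0.08 and −0.10 on TPM as deposited. Boc, a coreceptor of hedgehog, was 1.79 ± 0.55, 1.97 ± 0.42 and 3.07 ± 0.99 scaled TPM in wild-type, saline and ABE, 0.59 ± 0.15 higher on the log2 scale in ABE than in saline (adjusted p = 0.0029), but by 0.22 and not called on TPM as deposited (adjusted p = 0.392). Of 22 enzymes and transporters of chondroitin sulfate synthesis, 7 were lower and 5 higher in saline than in wild-type, and 6 were lower and 1 higher in ABE than in saline. On TPM as deposited these were 5 lower and none higher, and 11 lower and none higher. Of 11 genes of aggrecan degradation, 8 were higher and none lower in saline than in wild-type and 4 were higher and 3 lower in ABE than in saline, but on TPM as deposited 4 were higher in the first and 1 higher and 4 lower in the second. Among them Mmp13, a collagenase, had 15.0 ± 6.21 scaled TPM in wild-type, 60.4 ± 17.7 in saline and 34.1 ± 13.0 in ABE.

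**Figure D5:**
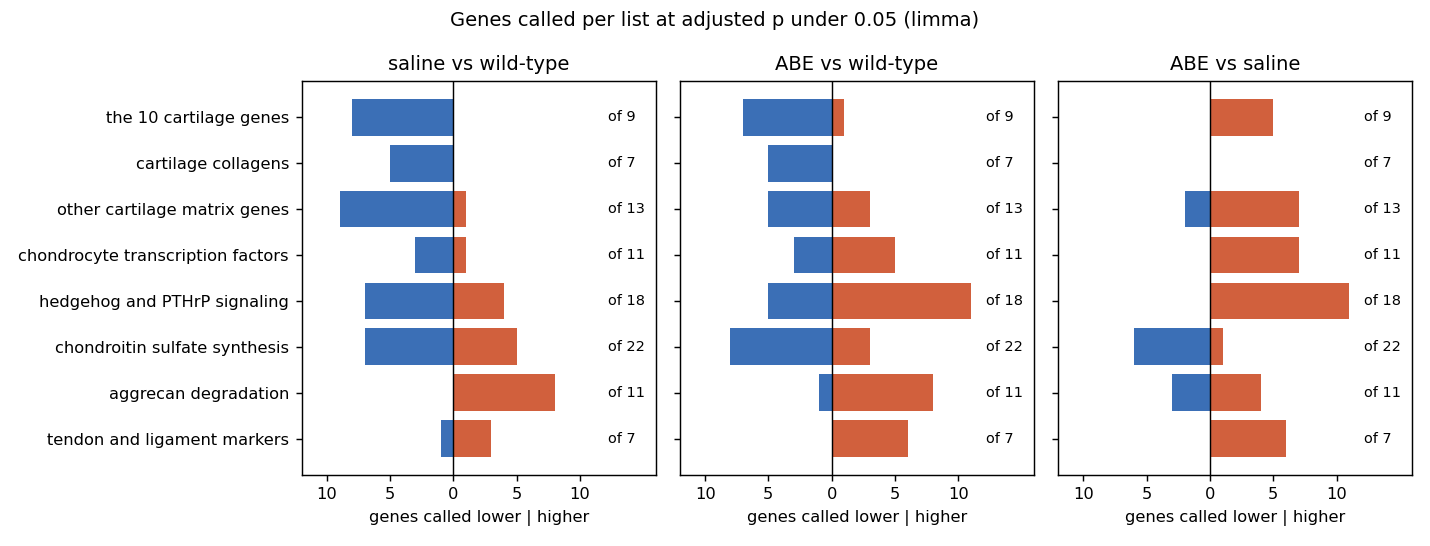
Number of genes called lower (blue, to the left) and higher (red, to the right) at an adjusted p under 0.05 by limma for the 10 cartilage genes and 7 lists of related genes in the 3 comparisons, with the number tested at the right of each bar. The cartilage genes and the cartilage collagens have no bar to the right in saline against wild-type, and in ABE against saline the cartilage genes have 5 to the right, or 2 on TPM as deposited, and the collagens none. On TPM as deposited 753 of all 22741 genes were called higher and 8102 lower in ABE against saline.

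Markers of other tissues were compared as well. Of all genes tested, 25.3% were called higher and 24.7% lower in saline than in wild-type. In ABE these shares were 32.9% and 34.0% against wild-type and 21.6% each against saline. Of 7 tendon and ligament markers, whose tissue also expresses Comp and Chad, 1 was lower and 3 higher in saline than in wild-type, and 6 were higher in ABE than in saline and 6 in ABE than in wild-type, or 5 and 4 on TPM as deposited. Their summed level was 3.54 to 22.5 scaled TPM in wild-type, 3.65 to 18.3 in saline and 8.50 to 38.4 in ABE. Tnmd, a defining marker of tendon, was 0.36 ± 0.24, 0.34 ± 0.14 and 0.89 ± 0.52 scaled TPM in wild-type, saline and ABE, with 1.03 ± 0.29 on the log2 scale for ABE against saline (adjusted p = 0.00535). In males alone this was 0.75 and not called (adjusted p = 0.128). Scx, another such marker, was 0.79 ± 0.24 higher in ABE than in saline (adjusted p = 0.0094). It was not called on TPM as deposited (0.44, adjusted p = 0.173) or in females alone (0.93, adjusted p = 0.0798). Of 10 skeletal muscle markers 8 were higher in saline than in wild-type, all 10 in ABE than in wild-type and 7 in ABE than in saline (6, 10 and 1 on TPM as deposited), with summed levels of 215 to 3195, 357 to 8401 and 1135 to 13553 scaled TPM. Osteocyte markers summed to 10.4 to 48.8 in wild-type, 170 to 490 in saline and 173 to 346 in ABE, with 5 of 6 higher in saline and 6 of 6 in ABE than in wild-type. No marker of these lists was at 0 in all libraries of a group. The part of these tissues in the differences of the cartilage genes was not tested.

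Of the remaining lists, osteoblast markers had 3 of 8 genes higher in saline and 3 in ABE than in wild-type and 1 higher and 1 lower in ABE than in saline (on TPM as deposited 1 higher, then 2 lower, then 1 lower), and their summed level was alike in range, 738 to 3106 in wild-type, 517 to 2489 in saline and 792 to 2411 in ABE. B cell markers were lower than in wild-type for 5 of 6 genes in saline and 6 of 6 in ABE, and 1 was lower in ABE than in saline, with the same counts on TPM as deposited. Of 7 neutrophil markers 2 were higher in saline than in wild-type, 2 lower in ABE than in wild-type and 6 lower in ABE than in saline, and of 5 adipocyte markers 2 were lower and 1 higher, 3 were lower and 4 were lower in these comparisons. The neutrophil counts against wild-type were near the shares of all genes. On TPM as deposited 1 neutrophil marker was higher, then 4 and 7 were lower. The adipocyte counts there were 2 lower and none higher, then 4 and 4 lower. The labels number the wild-type mice in a series apart from that of the LMNA G/G mice, and any difference in handling between these series and the genotype cannot be told apart.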

How the data were processed

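Stranded mRNA libraries of 36 tibiae were sequenced by the authors, aligned to GRCm38 with STAR 2.73a (version as in the submitters' processing notes) and counted on GENCODE genes. The authors deposited TPM. How they computed TPM is not given in the sources used here. Their low values step by what 1 read is worth when 218 bp are taken off the gene length (leaving 1 bp or more), and on that basis all values came out whole within 0.01 read, so the reads recovered served for depth and limma-voom. The deposited gene lengths were used, and the deposited fraction of G and C bases per gene was not. Genes of up to 219 bp took 84.7% to 96.6% of TPM, so TPM were divided by the median ratio over 23632 genes above 0 in all libraries.

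Scaled TPM plus a pseudocount of 0.1 were taken to log2, and genes with a mean of at least 0.1 were fitted with limma 3.58.1 (trend, group plus sex, 36 libraries) in R 4.3.3, with Benjamini-Hochberg adjustment. Sex differences were an interaction term. P-values measure the spread between mice. The fit was tested on simulated data. Sums and permutations were made in Python 3.11.15 with pandas 2.3.3 and numpy 2.4.6, and figures with matplotlib 3.10.9.

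Groups came from the labels, and replicates were numbered in accession order. The members, the gene lists and all settings were chosen with earlier results of these data known. Of each list at most the 4 genes with the highest mean were named, and for each member the 3 genes most alike. Coordinates are those of GENCODE vM21, which held 54487 of the 56246 gene identifiers, and promoters are from RefSeq. Alternatives were other scalings, pseudocounts of 0.5 and 1, other limits on low values, no sex covariate, 2 groups only, 1 sex only, array weights, limma-voom and each library left out. The human transgene, progerin and the editor were not analysed here.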

Additional observations from a re-analysis of the deposited data

How the results depend on the processing

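The falls of Acan, Hapln1, Comp, Chad, Cytl1 and Cnmd in saline, and of Acan, Cytl1 and Cnmd in ABE, against wild-type kept their direction and their call under all alternatives that tested them, and no member's fold change that had been called changed sign. The depth limits Matn1, Matn3 and Cnmd in LMNA G/G tibiae, where they had at most 37 reads. No paired analysis was possible because the mice of different groups share no numbers in the labels.

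Leaving out each library in turn kept each count of members called within 1.5 times. With a limit of 0.5 scaled TPM only 4 members were tested, of which 4, 4 and 3 were called in saline against wild-type, ABE against wild-type and ABE against saline. The share of all genes called at this limit is not given here. In the main fit it was 50.0%, 66.8% and 43.3%. In ABE against wild-type females alone gave 4 called members, and the share of all genes called there is not given here. In ABE against saline TPM as deposited gave 2, and males alone and females alone 3 each, where 4297 and 5611 of all 22546 genes were called in males and in females. For this comparison 753 of all 22741 genes were called higher and 8102 lower on TPM as deposited. With array weights, the saline and wild-type difference was called to depend on sex for 2 members, Comp and Sox9. The main fit and limma-voom called 0 of the 9. The share of all genes called with array weights is not given here.

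Ihh in saline against wild-type turned to −0.14 on TPM as deposited, −0.13 on TPM rescaled without short genes, −0.016 and −0.014 with pseudocounts of 0.5 and 1, −0.16 in males, and ran from −0.034 to 0.14 when single libraries were left out. Sox9 in ABE against wild-type turned to −0.27 on TPM as deposited, −0.0023 on TPM rescaled without short genes and −0.10 in females, and Cnmd in ABE against saline to −0.026 in females. Against wild-type, TPM as deposited turned ABE values of Pth1r to −0.082, Gas1 to −0.10 and Smo to −0.33, and Smo was −0.053 in females. The sex difference of saline against wild-type turned to 0.035, 0.048, 0.17 and 0.32 for Hapln1 with pseudocounts of 0.5 and 1, array weights and limma-voom, and to 0.036 and 0.054 for Matn3 with the pseudocounts. With single libraries left out it was −0.50 to 0.15 for Hapln1 and −0.69 to 0.066 for Matn3. The sex difference of ABE against saline turned on TPM as deposited to 0.046 for Acan, 0.032 for Hapln1, 0.16 for Comp, 0.072 for Matn3 and 0.31 for Sox9, and for Cytl1 to −0.36 with array weights. With single libraries left out it was −0.32 to 0.018 for Hapln1 and −0.082 to 0.0087 for Matn3.

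All genes called in saline against wild-type numbered 11284, but 6398 on TPM as deposited and 4721 in females. In ABE against saline they numbered 9752, but 4297 in males and 5611 in females. Calls were higher for 50.6%, 49.2% and 50.0% of genes called in the 3 comparisons, but for 22.8%, 14.4% and 8.5% on TPM as deposited and for 21.8%, 32.0% and 52.5% on TPM rescaled without short genes. The cause was not tested.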
